A study of Mus musculus with 26 samples.

Results

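The atypical chemokine receptors are 5 genes here, Ackr1, Ackr2, Ackr3, Ackr4 and Ccrl2. They were taken by name from the count tables of the monocytes and SPMs and by the same identifier from that of the lung, out of 50104 genes listed in all 3 tables, and all 5 were found in each of the 26 samples. RNA was sequenced from cells sorted by FACS from naïve female mice that were WT or ACKR2-/-, at steady state and with no treatment. There were 4 WT and 4 ACKR2-/- samples of bone marrow monocytes (CD11b+ Ly6C+ cells that lack F4/80, Ly6G and SiglecF), 4 and 4 of small peritoneal macrophages (SPMs, cells with intermediate F4/80 and with MHCII), and 5 and 5 of MHCII negative lung macrophages (CD11b+ F4/80+ cells that lack Ly6C, Ly6G and SiglecF). All cells were CD45+, the marker of blood-derived cells. The methods state that each monocyte and SPM sample pooled 5 mice, and no source used here gives the number of mice for the lung. WT mice were bought C57BL/6J animals and ACKR2-/- mice were bred at the study's own facility, so genotype and origin cannot be told apart. Part of the Ackr2 gene is missing in every cell of an ACKR2-/- mouse, and no source used here says which part.

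Conventional chemokine receptors sit in the membrane, couple to G proteins when a chemokine binds, and drive cell migration. Atypical receptors bind chemokines but do not couple in this way; they take the ligand up, carry it across a cell or hold it at the surface, and so shape how much chemokine other cells meet. ACKR1, the Duffy antigen of red cells and venular endothelium, binds many CC and CXC chemokines. ACKR2 scavenges inflammatory CC chemokines and is best known from lymphatic endothelium. ACKR3 takes up CXCL12, CXCL11 and adrenomedullin, ACKR4 takes up the homeostatic chemokines CCL19, CCL21 and CCL25, and CCRL2 holds chemerin for its signalling receptor CMKLR1. In macrophages CCRL2 is known as a gene that inflammatory stimuli induce.

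The difference between the classes can be read in the genes. Conventional receptors carry a motif, DRYLAIV, at the inner end of the third transmembrane helix, which takes part in G protein coupling, and its codons are shown for 2 conventional receptors and then for the 5 members, because this stretch is where the family departs from the others. Sequences are from GENCODE M21 transcripts on GRCm38, read 5′ to 3′ along the gene, each in a coding exon, and capitals mark codons whose residue differs from the motif. Positions were set by alignment of each translated transcript to that of Ccr2.
Ccr2: gataggtacttggctattgtt
Cxcr4: gaccggtacctcgctattgtc
Ackr1: GGATGCtatGCTTGCCTGAAC
Ackr2: gacAAAtacctgGAGattgtc
Ackr3: gaccgctatctcTCCatcACC
Ackr4: gacagatatTGGgcaattACC
Ccrl2: CAAGGAtacAGGGTGTTTTCC

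Ccr2 and Cxcr4 keep all 7 codons of the motif. Ackr2, Ackr3 and Ackr4 each differ at 2 of the 7, and Ackr1 and Ccrl2 at 6. Ackr1 is the most distant from Ccr2, with 25.3% identity over the translated alignment against 35.1% for Ackr2, 28.8% for Ackr3, 33.9% for Ackr4, 35.3% for Ccrl2 and 34.8% for Cxcr4, so its alignment is the least certain. The stretches lie at chr9:124106132-124106152 (+) for Ccr2, chr1:128589500-128589520 (-) for Cxcr4, chr1:173332495-173332515 (-) for Ackr1, chr9:121908978-121908998 (+) for Ackr2, chr1:90214241-90214261 (+) for Ackr3, chr9:104099321-104099341 (-) for Ackr4 and chr9:111056015-111056035 (-) for Ccrl2.

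Ackr2, Ccrl2 and Ackr4 share chromosome 9. Ackr2 (ENSMUSG00000044534) spans chr9:121898355-121911074 on the plus strand, Ccrl2 (ENSMUSG00000043953) spans chr9:111054486-111057519 on the minus strand, and Ackr4 (ENSMUSG00000079355) spans chr9:104084157-104126933 on the minus strand. Ackr1 (ENSMUSG00000037872) lies at chr1:173331886-173333750 on the minus strand and Ackr3 (ENSMUSG00000044337) at chr1:90203980-90216751 on the plus strand. The coding sequence of each member but Ackr1 is in a single exon. Ackr1 shares 361 exon bases, 25.7% of its own, with Cadm3 on the same strand, and Ackr4 shares 479 exon bases, 8.90%, with Acad11 on the opposite strand, so reads in these stretches may belong to either gene. Gm47000 and Gm46999 lie within introns of Ackr4 on the opposite strand.

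Depth, as reads counted on genes, was 15450670 to 19218213 in monocyte samples, 12781144 to 35400034 in SPM samples and 19950019 to 29770252 in lung samples. Levels within a cell type are given as CPM (reads of a gene relative to the depth of its library, scaled by TMM over the genes tested there). Where no read was seen, up to 3 may have been missed, which is 0.158 to 0.195 CPM in monocytes, 0.0773 to 0.264 in SPMs and 0.0985 to 0.160 in lung samples, and these limits cover counting error only, since PCR copies were not marked. Nothing in the labels says that the lung samples came from separate mice, so p-values there measure the spread between samples. The monocyte marker list (8 of 8 genes with reads) summed to 10490 to 18330 CPM in the monocyte samples, beside 17500 to 90510 for the neutrophil list. The list for SPMs (6 of 6) summed to 44510 to 69090 CPM in the SPM samples. In the lung samples the general macrophage list (8 of 8) summed to 2367 to 5329 CPM in 9 libraries and 14460 in WT replicate 3, and the interstitial macrophage list to 397 to 952 CPM in those 9 and 4431 in WT replicate 3. H2-Ab1, a gene of MHCII, stood at 21240 CPM in that library and at 253 to 1708 in the other 9. The blood endothelial list (8 of 8) summed to 161 to 1109 CPM and the epithelial list (8 of 8) to 253 to 19050 in the lung, although CD45+ cells were sorted. Lung WT replicate 3, for its MHCII genes, and the library labelled WT replicate 5 and ACKR2-/- replicate 4, for their low endothelial, epithelial and fibroblast lists, stood apart. The library labelled WT replicate 5 also goes against its label, with fewer reads of Ackr2 than any ACKR2-/- lung library. Beside the lung values of the members, and beside list values that moved, values without these 3 libraries are given. The library labelled WT replicate 5 and ACKR2-/- replicate 4 had the highest general macrophage lists after WT replicate 3, at 5329 and 5215 CPM. Their Csf1r (1949 and 2278 CPM) and Cd68 (1720 and 1965) were the lung's highest, but their C1qb (431 and 156) was not. Their interstitial lists, at 944 and 510 CPM, lay among those of the other libraries. Leaving them out removed the lowest endothelial, epithelial and fibroblast lists and kept libraries richer in such genes.

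The targeted gene came first in the comparison of the genotypes. Ackr2 had no reads in 3 WT monocyte samples and 2 reads in WT replicate 3, and 0 reads in each of the 4 ACKR2-/- monocyte samples. These are at or under the limit of detection, so monocytes give no check of the labels and no fold. In SPMs the 4 WT samples held 5, 8, 7 and 9 reads of Ackr2, or 0.240, 0.413, 0.616 and 0.333 CPM, and the 4 ACKR2-/- samples held 0. Every WT SPM sample was above every ACKR2-/- sample, which 3.4% of the 12997 genes tested in SPMs also showed in one direction or the other. The WT mean was 0.400 ± 0.160 CPM (SD, n = 4), at least 4.18-fold higher than the limit of 3 counts per ACKR2-/- library, and the exact two-sided permutation test gave p = 0.0286, the smallest that 4 samples against 4 allow. With so few reads Ackr2 did not pass the filter on low counts in SPMs. With no filter it was lower in ACKR2-/- SPMs by edgeR (adjusted p = 0.0326) and by DESeq2 (adjusted p = 0.00236). The B cell list (8 of 8 genes with reads) summed to 297 to 945 CPM in WT and 553 to 818 in ACKR2-/- SPM samples. The paper reports ACKR2 on peritoneal B1 cells by chemokine uptake, and low transcription in SPMs, where uptake had not been detected. Which cells held the Ackr2 reads of the SPM samples was not tested.

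In the lung Ackr2 was far more abundant. The libraries labelled WT replicates 1 to 5 held 469, 436, 150, 372 and 0 reads, or 22.1, 17.7, 7.75, 14.6 and 0 CPM. ACKR2-/- replicates 1 to 5 held 50, 38, 25, 7 and 7 reads, or 1.64, 1.37, 1.08, 0.282 and 0.372 CPM. The groups overlapped through the library labelled WT replicate 5, and the other 4 WT libraries were all above every ACKR2-/- library. Set against the summed blood endothelial list of the same library, Ackr2 came to 2.02, 1.9, 2.11 and 2.06% in WT replicates 1 to 4 and to 0.102 to 0.175% in the ACKR2-/- libraries. Only this list was used as the base, not the lymphatic endothelial or fibroblast list, and which cells held Ackr2 was not tested. The 0 reads of the library labelled WT replicate 5 lie below the ACKR2-/- libraries on this measure too, so for the targeted gene its values do not match its label. The WT mean of 12.4 ± 8.70 CPM was 13.1-fold that of ACKR2-/- (0.949 ± 0.603, SD, n = 5 each). The log2 fold change was -3.69 (SE 1.04), with an adjusted p of 0.9999 over 16824 genes by edgeR's quasi-likelihood test and 0.0514 by DESeq2, and the exact permutation test gave p = 0.0476, which did not stay under 0.05 when any 1 library other than the one labelled WT replicate 5 was left out. Without the latter the log2 fold change was -3.99 (SE 0.54, adjusted p = 0.222), and without all 3 libraries that stood apart it was -3.98 (SE 0.44, adjusted p = 0.0966), with a WT mean of 18.1 ± 3.80 CPM (n = 3) and an ACKR2-/- mean of 1.12 ± 0.547 (n = 4). All 5 ACKR2-/- libraries still held Ackr2 reads, 127 in all, and since the tables give counts per gene these reads cannot be placed within it.

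**Figure D1:**
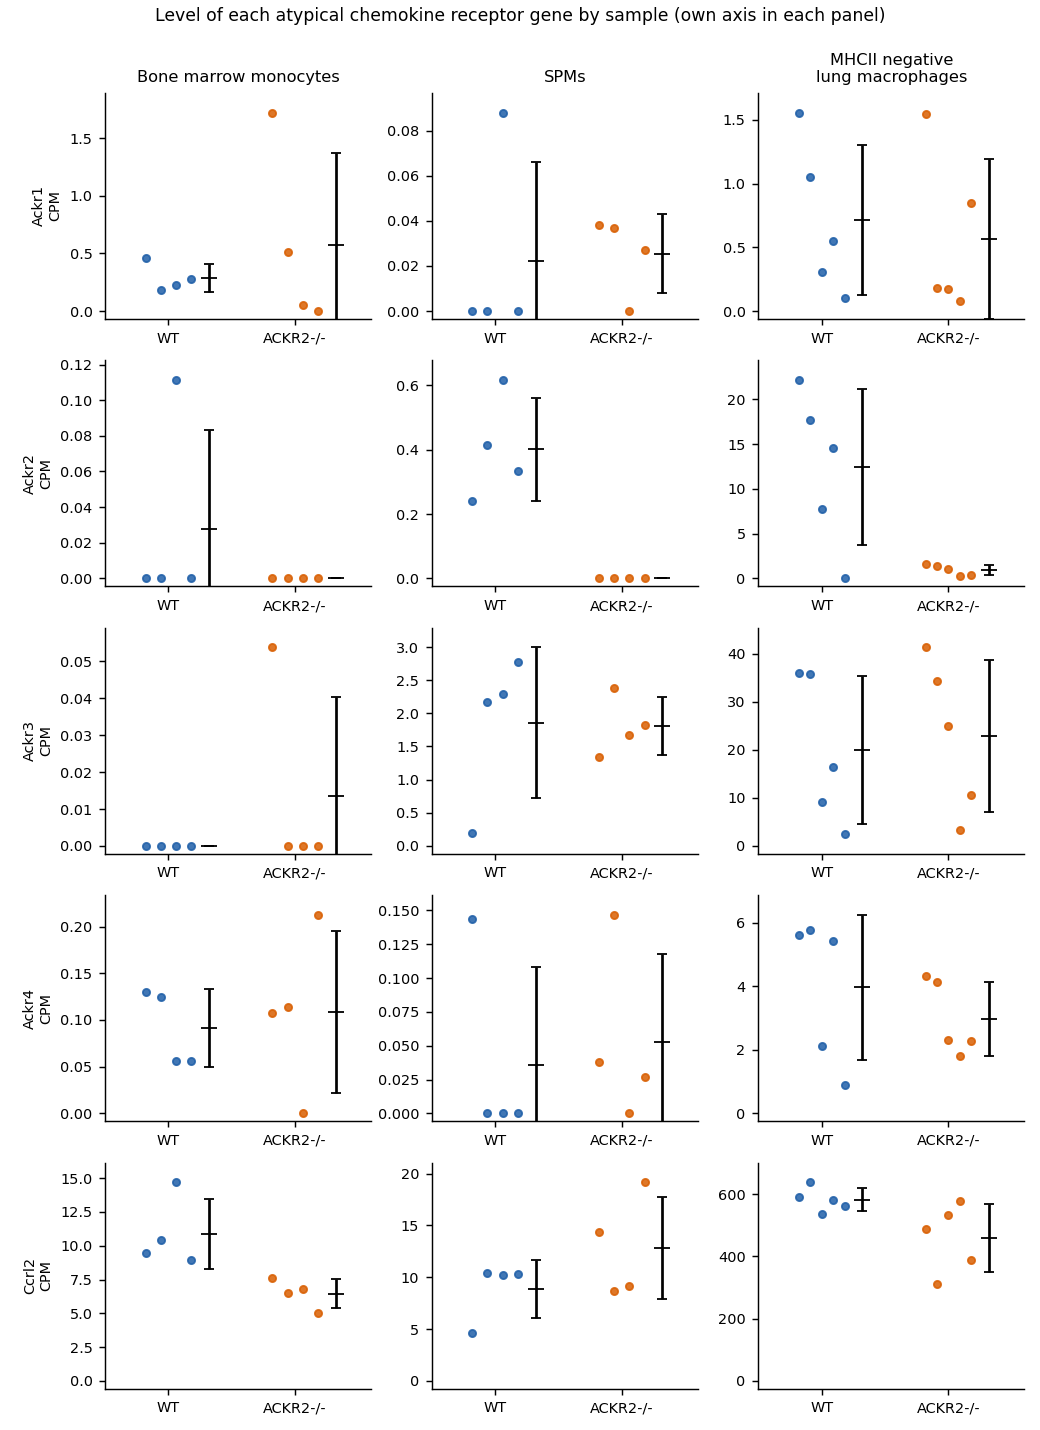
Each panel plots 1 gene (row) in 1 cell type (column) as CPM, with a point per sample in order of replicate number, WT in blue and ACKR2-/- in orange, and a black mark for the mean ± SD (cut where it passes below the axis); axes differ between panels. Ackr2 stands at 0 in every ACKR2-/- SPM sample, and Ccrl2 in WT lung samples lies between 538 and 638 CPM, far above its level in monocytes and SPMs.

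Ccrl2 was the one member with over 90 reads in every sample of every cell type. In monocytes the WT samples stood at 9.44, 10.4, 14.7 and 8.95 CPM and the ACKR2-/- samples at 7.58, 6.49, 6.79 and 4.99. Every ACKR2-/- monocyte sample was below every WT sample, as 10.2% of the 13246 genes tested were separated one way or the other. The means were 10.9 ± 2.61 and 6.46 ± 1.08 CPM (SD, n = 4 each), 0.594 of the WT level in ACKR2-/-. The log2 fold change was -0.75 (SE 0.21), with an adjusted p of 0.102 by edgeR's quasi-likelihood test over all genes, so Ccrl2 was not among the 1.27% of genes called at an adjusted p under 0.05 and a log2 fold change beyond 0.5. DESeq2 gave an adjusted p of 0.0322, the exact permutation test p = 0.0286, and that test on CPM without TMM scaling p = 0.0571, because the groups then overlapped. Sums of marker lists differed beside it. The monocyte list summed to 17210 to 18330 CPM in WT and 10490 to 16150 in ACKR2-/- samples. The neutrophil list summed to 43490 to 90510 and 17500 to 64880, which overlapped, and the T cell list (8 of 8 genes with reads) to 3.73 to 4.66 and 63.9 to 114. Of the genes tested, 0 of 8 in the monocyte list, 0 of 8 in the neutrophil list and 7 of 7 in the T cell list were called. The part of these lists in the Ccrl2 difference was not tested.

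In SPMs Ccrl2 leaned the other way without passing the test. WT samples stood at 4.60, 10.4, 10.2 and 10.3 CPM and ACKR2-/- samples at 14.4, 8.65, 9.17 and 19.1, and the groups overlapped. The log2 fold change was 0.54 (SE 0.34, adjusted p = 0.788 by edgeR, where 0.0462% of genes were called). Most of the WT spread came from replicate 1, and without it the log2 fold change was 0.32 (SE 0.27). That library was also the lowest WT sample for Ackr3 and for the list of large peritoneal macrophage genes, the main resident macrophage of the cavity, which summed to 366 CPM there and to 949 to 1324 in the other 3 WT samples; the ACKR2-/- samples ranged from 1069 to 2062. WT replicate 1 was the lowest WT sample for the B cell, T cell and mast cell or basophil lists too, at 297, 247 and 134.5 CPM. For the monocyte list it was the highest, at 2824 CPM beside 1093 to 1372 in the other WT samples. The part of these lists in the values was not tested.

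The lung samples held by far the most Ccrl2. WT samples stood at 591, 638, 538, 582 and 562 CPM, a spread of 6.4% of the mean, and ACKR2-/- samples at 489, 311, 534, 577 and 387, a spread of 23.7%. The 2 highest ACKR2-/- values lay near or within the WT range and the other 3 lay below it. Means were 582 ± 37.2 and 459 ± 109 CPM (SD, n = 5 each), and the log2 fold change was -0.34 (SE 0.18, adjusted p = 0.9999 by edgeR). The exact permutation test of the means gave p = 0.0317, and p = 0.0635 on CPM without TMM scaling or without any of 6 single libraries. Without the 3 libraries that stood apart the log2 fold change was -0.48 (SE 0.20, adjusted p = 0.999).

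Whether the genotype acted alike on Ccrl2 in the 3 cell types was tested in a joint fit of all samples. The genotype difference in SPMs minus that in monocytes was 1.36 on the log2 scale (SE 0.39, adjusted p = 0.231 by edgeR), and that in the lung minus that in SPMs was -0.91 (SE 0.37, adjusted p = 0.775). The lung minus monocyte difference was 0.45 (SE 0.37, adjusted p = 0.937). None of the 3 passed over 17792 genes, of which 0.253%, 0.0393% and 0.152% were called in these comparisons. Opposite signs in monocytes and SPMs are therefore not shown to be different effects.

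**Figure D2:**
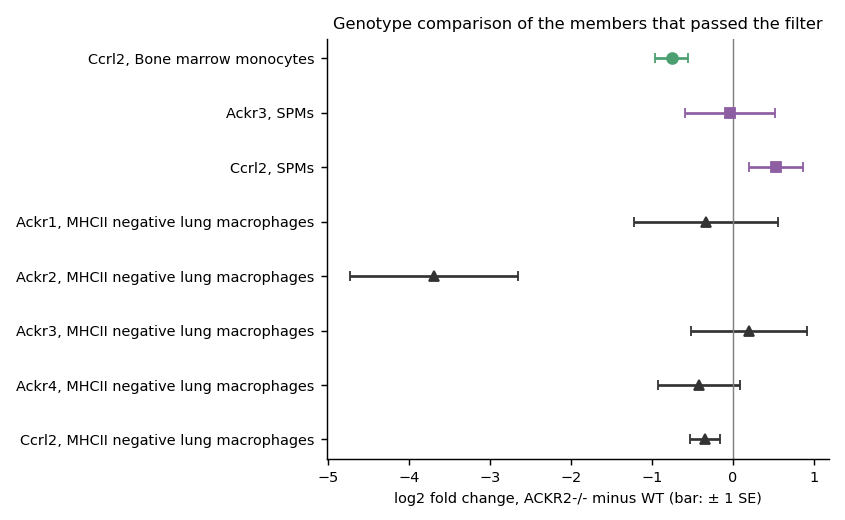
The horizontal axis gives the log2 fold change, ACKR2-/- minus WT, with a bar of 1 SE each side, for the 8 pairs of gene and cell type that passed the filter on low counts (circle, monocytes; square, SPMs; triangles, lung). Ackr2 in the lung lies farthest from 0, at -3.69, and Ccrl2 lies below 0 in monocytes and the lung and above it in SPMs.

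Ackr3 was not detectable in monocytes at this depth. The WT monocyte samples held 0 reads each and the ACKR2-/- samples 1, 0, 0 and 0. In SPMs WT samples stood at 0.192, 2.17, 2.29 and 2.77 CPM (4 to 75 reads) and ACKR2-/- samples at 1.34, 2.38, 1.68 and 1.83 (35 to 68 reads). The genotypes overlapped, with a log2 fold change of -0.03 (SE 0.56, adjusted p = 0.992) whose sign changed with the library left out. Lung WT samples stood at 36.1, 35.8, 9.20, 16.4 and 2.52 CPM and ACKR2-/- samples at 41.3, 34.3, 24.9, 3.42 and 10.6. The range within each genotype was over 10-fold and the ranges overlapped almost fully, with a log2 fold change of 0.20 (SE 0.72, adjusted p = 0.9999), or -0.07 (SE 0.44) without the 3 libraries.

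Ackr4 and Ackr1 were near the limit of detection outside the lung. Ackr4 had 2, 2, 1 and 1 reads in WT and 2, 2, 0 and 4 in ACKR2-/- monocytes, and 3, 0, 0 and 0 against 1, 4, 0 and 1 in SPMs. Its lung levels were 5.62, 5.75, 2.12, 5.41 and 0.906 CPM in WT and 4.33, 4.12, 2.32, 1.81 and 2.29 CPM in ACKR2-/- samples. These overlapped, with a log2 fold change of -0.41 (SE 0.51, adjusted p = 0.9999), and of -0.76 (SE 0.35, adjusted p = 0.999) without the 3 libraries. Part of its reads may be from Acad11, as above.

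Ackr1, the red cell and venule receptor, had 7, 3, 4 and 5 reads in WT monocytes and 32, 9, 1 and 0 in ACKR2-/- monocytes. A single ACKR2-/- library, replicate 1, held most of these reads, at 1.72 CPM against at most 0.512 CPM in the other 7. The erythroid list (8 of 8) was highest in the same library, at 1247 CPM beside 67.4 to 497 in the other 7, and its part was not tested. In SPMs there were 1 read in all in WT and 3 in ACKR2-/- samples. Lung WT samples stood at 1.56, 1.05, 0.310, 0.549 and 0.101 CPM and ACKR2-/- samples at 1.54, 0.181, 0.172, 0.0805 and 0.851 CPM, which overlapped (log2 fold change -0.33, SE 0.89, adjusted p = 0.9999, or -0.60, SE 0.87, adjusted p = 0.999, without the 3 libraries).

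Counted over the family, 1 member passed the filter in monocytes (Ccrl2), 2 in SPMs (Ccrl2 and Ackr3) and 5 in the lung, and 0 of these 8 were called between the genotypes by edgeR. DESeq2 called 1, Ccrl2 in monocytes. In the lung no gene at all was called by edgeR (0.0% of 16824), with 499 genes at an unadjusted p under 0.05 and 15 called by DESeq2, and 0.446% of genes had genotypes that did not overlap, none of them a member.

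To set genes of unequal length side by side, levels were expressed as RPKM (reads per kilobase of gene, relative to depth), scaled over all 26 samples, with the gene lengths of the tables (1405 to 5380 bases). In WT lung samples Ccrl2 stood at 174 ± 15.1 (SD, n = 5), followed by Ackr3 at 4.67 ± 3.71, Ackr2 at 3.09 ± 2.26, Ackr4 at 0.570 ± 0.333 and Ackr1 at 0.400 ± 0.347. These libraries also held endothelial and epithelial genes, as given above, and the part of such cells in this order was not tested. Ccrl2 was clear of the rest, whereas Ackr3 and Ackr2 overlapped, and so did Ackr4 and Ackr1. Without the 3 libraries the order was kept, at 180.2 ± 14.3 (n = 3), 6.91 ± 2.90, 4.54 ± 1.23, 0.807 ± 0.0649 and 0.593 ± 0.315. In WT SPMs the order was Ccrl2 (6.08 ± 2.16, n = 4), Ackr3 (1.000 ± 0.628) and Ackr2 (0.226 ± 0.0937), with Ackr1 and Ackr4 at 1 and 3 reads in all. Ackr3 and Ackr2 overlapped there, since in WT SPM replicate 1 Ackr3 was at 0.0921 and Ackr2 at 0.123 (4 and 5 reads). WT monocytes held Ccrl2 (3.28 ± 0.781, n = 4) and Ackr1 (0.159 ± 0.0642), with 6 reads of Ackr4, 2 of Ackr2 and 0 of Ackr3.

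Ccrl2 accounted for most of the family in each WT sample. Its share of the summed level per length was 91.3 to 96.5% in monocytes, 80.7 to 91.7% in SPMs and 91.9 to 99.5% in the lung. Among all genes with reads in the WT lung samples it ranked 268 of 25484 by this measure (251 of 24266 without the 3 libraries). In WT SPMs it ranked 4585 of 21665 and in WT monocytes 6363 of 21258.

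**Figure D3:**
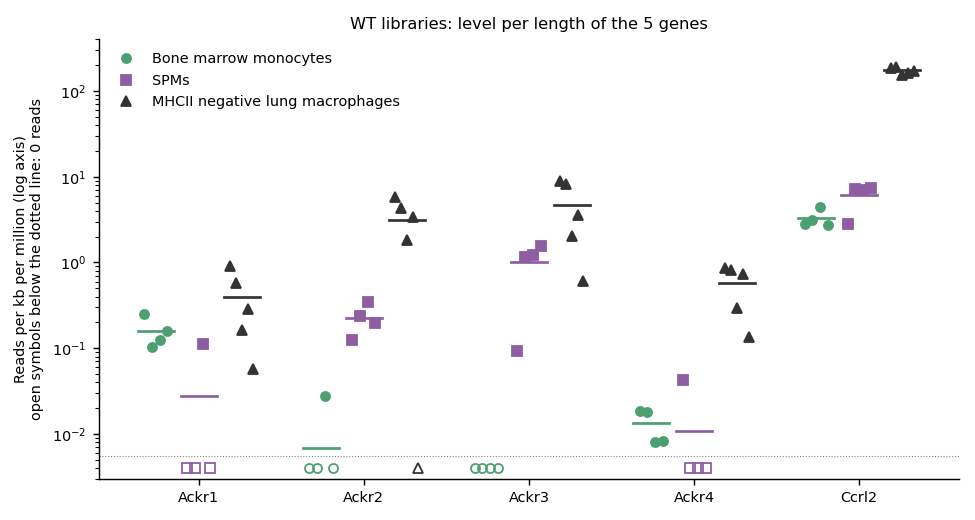
Points are WT samples of monocytes (circles), SPMs (squares) and lung macrophages (triangles), on a log axis of RPKM, with a line at each mean; open symbols under the dotted line are samples with 0 reads. Ccrl2 is the highest gene in each cell type and reaches 154 to 189 in the lung, and the 4 monocyte samples have no Ackr3 read.

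The cell types were compared in WT mice in the joint fit. Each cell type came in a table of its own and the lung table differs in its annotation, so cell type, run and counting cannot be told apart, and CPM here are on the scale of all 26 samples. The scaling between cell types bears on these comparisons. RLE in place of TMM factors moved the median of all genes by 0.16 (SPMs minus monocytes), 0.07 (lung minus monocytes) and -0.10 (lung minus SPMs) on the log2 scale, and scaling by depth alone, with no TMM factors, moved it by -0.96, 0.09 and 1.21. Of the 17792 genes tested, 21.8% were called higher and 20.1% lower from monocytes to SPMs, against 9.08% and 46.9% with depth alone, and 39.1% higher and 23.2% lower from SPMs to the lung, against 66.4% and 9.47%. From monocytes to SPMs 3 of 5 members were called higher with TMM factors, where 41.9% of genes were called in either direction, and of these 3 the call for Ackr3 held with depth alone. Ccrl2 went from 8.51 to 15.8 CPM (log2 fold change 0.89, SE 0.28, adjusted p = 0.0120 by edgeR), with overlapping groups. This direction depends on the scaling, and with depth alone the means were 10.5 ± 2.85 in monocytes and 8.25 ± 1.90 in SPMs (SD, n = 4 each; log2 fold change -0.34, SE 0.25, adjusted p = 0.257). Ackr3 was at least 23.9-fold higher than the limit of 3 counts per monocyte library (adjusted p = 3.81e-05, and 0.000166 with depth alone). Ackr2, at 29 reads against 2, was 27.9-fold higher with a 95% counting interval of 7.05 to 241 (exact, from Poisson counts). Its adjusted p was 0.0138 by edgeR, and 0.0567 with depth alone. The part of B cells in the SPM reads of Ackr2 was not tested. Ackr1, at 1 read against 19, and Ackr4, at 3 against 6, did not pass (adjusted p = 0.147 and 1), but with depth alone Ackr1 was called lower in SPMs (log2 fold change -3.89, SE 1.49, adjusted p = 0.0290). The sign for Ackr4 turned with RLE factors.

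From monocytes to the lung 4 of 5 members were higher, where 39.5% of genes were called higher and 63.8% in either direction. Ccrl2 was 53.0-fold higher (log2 fold change 5.73, SE 0.33, adjusted p = 2.54e-13), and Ackr4 was 42.9-fold higher (5.34, SE 0.87, adjusted p = 8.41e-06). Ackr3 was at least 112-fold higher than the limit of 3 counts per monocyte library, and Ackr2 428-fold higher, with a counting interval of 118 to 3540 over its 2 monocyte reads and an overlap through the lung library labelled WT replicate 5. Ackr1 had overlapping groups and did not pass (2.52-fold, adjusted p = 0.266).

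From SPMs to the lung all 5 members were called higher, beside 39.1% of all genes (62.3% in either direction). Ccrl2 rose 28.6-fold (log2 fold change 4.84, SE 0.31, adjusted p = 3.32e-12) and its groups did not overlap. Ackr2 was 13.7-fold higher (3.81, SE 1.02, adjusted p = 0.00296) and Ackr3 4.68-fold (2.23, SE 0.73, adjusted p = 0.0109), with overlapping groups because of the low lung libraries. Ackr4, with 3 SPM reads, was 47.7-fold higher with a counting interval of 16.2 to 232, and Ackr1, with 1, was 25.3-fold higher with an interval of 4.42 to 1010. The call for Ackr1 was lost when WT SPM replicate 4 was left out (adjusted p = 0.0540). Without the 3 lung libraries that stood apart the same members were called in the 3 comparisons, and with depth alone the same members were called in both comparisons with the lung, with Ccrl2 at 6.16 (SE 0.30) on the log2 scale above SPMs. Fewer cells of a type and less RNA per cell cannot be told apart in such samples.

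Within the lung, Ackr3 and Ackr4 varied together with the markers of blood endothelial cells from library to library. Ordered by the summed blood endothelial list, the WT libraries ran from replicate 1 (1097 CPM) through replicates 2 (930), 4 (709) and 3 (368) to the one labelled 5 (195), and over replicates 1, 2, 4 and 3 Ackr2 fell in that same order, from 22.1 to 7.75 CPM. No correlation with a marker list was computed for Ackr2, which the deletion itself lowers in ACKR2-/- libraries. The ACKR2-/- libraries ran from replicate 1 (1109 CPM) through 2 (855), 3 (624) and 5 (365) to 4 (161), and both Ackr3, from 41.3 to 3.42 CPM, and the remaining Ackr2 reads, from 1.64 to 0.282 CPM, fell in the same order. Over the 10 libraries, log2 CPM of Ackr3 followed the log2 sum of that list with r = 0.977 and rho = 0.964 (permutation p = 4e-05 and 6e-05, adjusted p = 0.0007 and 0.0006 over 20 relations of a member and a list), and with r = 0.952 without the 2 libraries farthest from the median. Both measures come from the same libraries and share their scaling.

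The relation of Ackr3 held with the other lists too. It was r = 0.963 with lymphatic endothelial, 0.937 with fibroblast, 0.911 with epithelial and 0.889 with mesothelial genes. These 5 lists rose and fell together, so the relations cannot be told apart. Ackr4 followed the blood endothelial list with r = 0.886 and rho = 0.867 (permutation p = 0.00067 and 0.00223, adjusted p = 0.00268 and 0.00892; 0.841 without 2 libraries). For Ackr1 the relation was weaker (r = 0.698, rho = 0.806, permutation p = 0.0287 and 0.00757, adjusted p = 0.0478 and 0.0189) and rested on the libraries at the ends, with r = 0.481 without them. Ccrl2 showed no such relation (r = -0.108, rho = 0.103, permutation p = 0.775 and 0.784, adjusted p = 0.775 and 0.916; 0.203 without 2 libraries). No correlation was computed within a genotype of 5 libraries. Prox1, which defines lymphatic endothelium, was at 0 to 1.1 CPM in the 10 libraries, Cdh5 of all endothelium at 1.9 to 24.0, Col1a1 of fibroblasts at 5.3 to 112 and Sftpc of alveolar epithelium at 181 to 10150. The part of such cells in the levels of Ackr1, Ackr2, Ackr3 and Ackr4 was not tested.

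**Figure D4:**
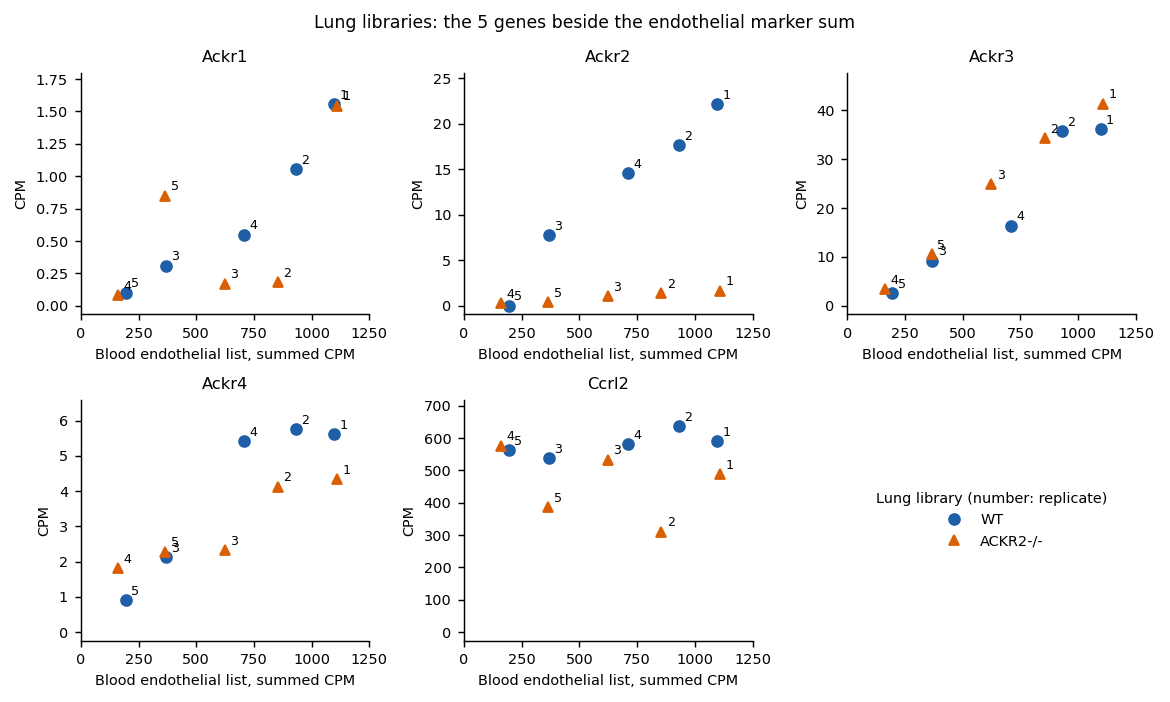
Each panel sets the CPM of 1 gene (vertical axis) against the summed CPM of 8 blood endothelial marker genes (horizontal axis) in the 10 lung libraries, numbered by replicate, with WT as blue circles and ACKR2-/- as orange triangles. Ackr3 climbs with the marker sum in both genotypes, Ackr2 runs from 7.75 to 22.1 CPM in WT replicates 1 to 4, is at 0 in the library labelled WT replicate 5 and stays at or below 1.64 in ACKR2-/-, and Ccrl2 is high in every library.

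The genes whose log2 CPM most resembled that of each member over the 10 lung libraries, among 16824 tested, were named as a description. For Ackr3 they were Gm16136 (r = 0.991), Rasip1 (0.989), which acts in blood vessel formation, and Lbp (0.988), the binding protein for lipopolysaccharide. For Ackr4 they were AC165951.2 (0.976), Hecw2 (0.967) and Gm16596 (0.955), and for Ackr1 Zmynd10 (0.940), a gene of motile cilia, Pkhd1l1 (0.919) and Ell2 (0.902). For Ackr2 they were Deaf1 (0.939), Sgsm3 (0.938) and Ttc28 (0.930). The deletion itself lowers Ackr2 in the ACKR2-/- libraries, so these r values hold the genotype difference as well. Ccrl2 was closest to Gm15925 (0.936), Med24 (0.929) and Zfp36 (0.925), a regulator of inflammatory mRNA that stood at 2284 to 4075 CPM.

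The ligands of the family were followed from lists of known partners. Of 11 CC chemokine genes listed for ACKR2, 5 were tested in monocytes, and 1 was called, where 1.27% of all genes were called. Ccl5, a T cell and myeloid chemokine, stood at 0.946 to 2.80 CPM in WT and 9.34 to 17.9 CPM in ACKR2-/- monocytes (log2 fold change 2.90, SE 0.33, adjusted p = 0.00102 by edgeR), and the list's median was -0.15 beside 0.00 over all genes. The paper gives the opposite direction for this gene, with less CCL5 transcription in ACKR2-/- monocytes. The reason for this difference from the paper was not tested. T cell list genes were higher in the same ACKR2-/- samples, 7 of 7 tested being called, and no gene of that list was without reads; their part was not tested. In SPMs 8 were tested and 0 called, where 0.0462% of all genes were called, with a median of 0.60 beside -0.05 over all genes. The largest values there were those of Ccl8, at 2.38 (SE 1.32), and Ccl4, at 2.33 (SE 0.66), both with an adjusted p of 0.788. In the lung, where 0.0% of all genes were called, 11 were tested and 0 called. Of these 9 had a value below 0, and the median was -1.32 beside -0.04 over all genes. Ccl12, Ccl8 and Ccl7 stood at -2.73 (SE 0.85), -2.11 (SE 0.92) and -1.80 (SE 0.51), and Ccl5 at 2.02 (SE 0.46), each with an adjusted p of 0.9999. Ccl12 ranged from 9.13 to 235 CPM in WT and from 3.62 to 18.1 in ACKR2-/- samples. Much of this went with the 3 libraries that stood apart. Without them the list's median was 0.04 beside -0.03 over all genes, with 0 called, Ccl12, Ccl8 and Ccl7 stood at -0.77 (SE 0.52), 0.04 (SE 0.68) and -0.98 (SE 0.39), and Ccl12 ranged from 9.13 to 29.2 CPM in WT samples. Ccl5 then stood at 2.26 (SE 0.43, adjusted p = 0.822), at 70.4 to 150.9 CPM in WT and 305.3 to 796.2 in ACKR2-/- samples. In the same libraries the T cell list summed to 187.3 to 345.6 CPM in WT and 295.9 to 546.1 in ACKR2-/- samples. Over all lung libraries 0 of its 8 tested genes were called, and its part in the lung Ccl5 difference was not tested.

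**Figure D5:**
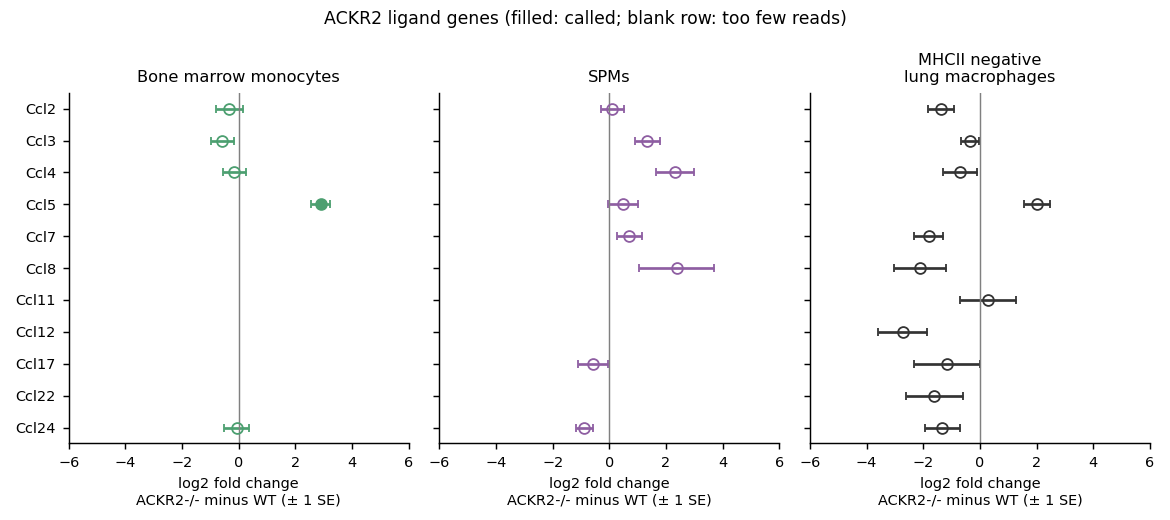
For the 11 genes of ACKR2 ligands the horizontal axis gives the log2 fold change, ACKR2-/- minus WT, with a bar of 1 SE each side, in monocytes, SPMs and lung macrophages; filled symbols were called and blank rows had too few reads to test. Ccl5 in monocytes, at 2.90, is the single filled symbol.

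The same ligands differed widely between the WT cell types. From monocytes to the lung 11 of 11 were called higher, namely Ccl2, Ccl3, Ccl4, Ccl5, Ccl7, Ccl8, Ccl11, Ccl12, Ccl17, Ccl22 and Ccl24, with a median of 8.26 beside 0.34 over all genes. Of all genes, 39.5% were called higher there. From SPMs to the lung 9 were higher, of which Ccl8 lost its call without the 3 lung libraries (log2 fold change 1.36, SE 1.08, adjusted p = 0.280), and Ccl24, a chemokine for eosinophils, was lower. Ccl24 stood at 223 ± 22.4 RPKM in SPMs (n = 4) and 4.29 ± 3.19 in the lung (n = 5), and was lower in the lung (log2 fold change -5.71, SE 0.54, adjusted p = 1.73e-09). Ccl3 and Ccl4, the inflammatory macrophage proteins, stood at 529 ± 202 and 765 ± 776 RPKM in the lung. Without the 3 libraries Ccl24, Ccl3 and Ccl4 were at 2.24 ± 1.06, 453 ± 95.9 and 477 ± 314 there (n = 3). From monocytes to SPMs 5 were higher (Ccl5, Ccl7, Ccl8, Ccl17 and Ccl24) and Ccl3 was lower. The list for ACKR1 shares 5 of its 8 genes with that of ACKR2. Its 3 others are neutrophil chemokines, of which Cxcl1 was called higher in all 3 comparisons, Cxcl2 in both with the lung and Cxcl5 from SPMs to the lung. The call for Cxcl5 was lost without the 3 lung libraries (adjusted p = 0.157), and that for Cxcl1 from monocytes to SPMs with depth alone (adjusted p = 0.122). Between the genotypes only Ccl5 in monocytes was called among the ACKR1 ligands, which had 3, 5 and 8 genes tested in monocytes, SPMs and the lung.

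Of the ACKR3 ligands, Cxcl12 stood at 0.0801, 0.911 and 2.66 RPKM in WT monocytes, SPMs and lung. It was higher in SPMs than monocytes (log2 fold change 3.50, SE 0.88, adjusted p = 0.00203 by edgeR) and in the lung than monocytes (5.05, SE 0.90, adjusted p = 2.95e-05). Adm, the precursor of adrenomedullin, had no read in WT monocytes and stood at 4.85 ± 3.20 and 14.3 ± 5.69 in WT SPMs and lung, higher in the lung than in SPMs (1.58, SE 0.63, adjusted p = 0.0339), a call that was lost with RLE factors. Cxcl11 had 33, 2 and 18 reads in all in the WT groups. The ACKR4 ligand Ccl21a, which has near-identical copies that may share its reads, had 0 reads in WT monocytes and SPMs and stood at 49.9 ± 31.2 in the lung, Ccl19 was also called higher there, and Ccl25 was lower in the lung than in either (log2 fold change -0.94, SE 0.28, and -0.90, SE 0.29). The sign of the latter, against SPMs, turned with depth alone (0.38, SE 0.31). For CCRL2, Rarres2, the gene of chemerin, had 1 read in all in WT monocytes and 12 in SPMs and stood at 16.4 ± 8.50 in the lung. Cmklr1, the signalling receptor for chemerin, was highest in SPMs (3.97 ± 3.83), where it was above monocytes (log2 fold change 5.57, SE 0.67, adjusted p = 2.05e-07), and lower in the lung than in SPMs (-2.83, SE 0.52, adjusted p = 3.78e-05). Gpr1, the other chemerin receptor, did not pass the filter. The lists of non-immune cells were also high in the lung libraries. The blood endothelial list summed to 195 to 1097 CPM in WT lung samples beside 9.78 to 21.7 in WT SPMs and 12.5 to 15.2 in WT monocytes. The fibroblast list summed to 105 to 1005 CPM in the lung and to at most 0.981 in WT SPMs and 0.977 in WT monocytes. The lymphatic endothelial list, which includes Ccl21a itself, summed to 39.6 to 222.8 CPM in the lung, 13.9 to 24.9 in WT SPMs and 0.130 to 0.668 in WT monocytes. The part of such cells in the lung levels of Cxcl12, Adm, Ccl19, Ccl21a and Rarres2 was not tested. Of the blood endothelial, lymphatic endothelial and fibroblast lists, 3, 0 and 0 genes were tested between the genotypes in monocytes and 3, 1 and 1 in SPMs. In the lung 8, 6 and 8 were tested. None was called, but with so few tested, and 0.0% of all genes called in the lung, this cannot show that the lists were alike. In SPMs the lymphatic endothelial list summed to 13.9 to 24.9 CPM in WT and 5.12 to 8.01 in ACKR2-/- samples, without overlap. Of single genes tested in SPMs, 3.4% were separated one way or the other. Of its 7 genes, 4 had reads in WT and 3 in ACKR2-/- SPMs, with none of Ccl21a, Mmrn1 and Reln in either. The list shares Lyve1 with the interstitial macrophage list, and which cells held these reads was not tested.

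Of 18 signalling chemokine receptors, 12 were tested in monocytes and 4 were called, all higher in ACKR2-/- samples, where 1.27% of all genes were called. Cxcr6 stood at 0.261 to 0.871 CPM in WT and 4.78 to 10.5 CPM in ACKR2-/- samples (log2 fold change 3.83, SE 0.38), Ccr7 at 0.111 to 0.586 and 2.07 to 4.46 CPM (3.17, SE 0.49), and Cxcr3 at 3.62 to 4.66 and 6.15 to 14.2 CPM (1.34, SE 0.27). These 3 are receptors of T cells as well as of other leukocytes, and the T cell list was higher in the same samples, as given above. Ccr1, a receptor of monocytes and neutrophils for several ACKR2 ligands, stood at 69.9 to 87.9 and 155 to 226 CPM (1.21, SE 0.15, adjusted p = 0.00129 by edgeR). The list's median was 0.20. In SPMs 11 were tested and in the lung 16, and 0 were called in either, with medians of -0.05 and -0.56. Of all genes, 0.0462% and 0.0% were called in these 2 cell types.

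Receptors differed between the WT cell types in both directions. From monocytes to SPMs the receptors called higher included Ccr1, Ccr2, Ccr3, Ccr6, Ccr7, Cxcr3, Cxcr5, Cxcr6 and Xcr1, and those called lower were Ccr10, Cx3cr1, Cxcr2 and Cxcr4. From monocytes to the lung those called higher included Ccr3, Ccr6, Ccr7, Ccr8, Cxcr4, Cxcr5, Cxcr6 and Xcr1, and those called lower were Ccr1, Ccr2, Ccr10 and Cxcr2. From SPMs to the lung Ccr7, Ccr8, Cx3cr1 and Cxcr4 were higher, and those called lower included Ccr1 and Ccr2. Ccr2, the receptor for CCL2, stood at 81.6 ± 16.9, 244 ± 127 and 10.3 ± 15.0 RPKM in WT monocytes, SPMs and lung. The lung mean rests on WT replicate 3, at 336.9 CPM beside 25.1 to 37.3 in the other 4, and was 3.51 ± 0.598 RPKM (n = 3) without the 3 libraries. Cxcr4, which shares CXCL12 with ACKR3, stood at 10.0 ± 1.15, 1.30 ± 0.768 and 45.0 ± 18.1. With depth alone the calls from monocytes to SPMs for Ccr1, Ccr2, Ccr3, Cxcr3 and Xcr1 were lost, with values still above 0.

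No listed gene of the machinery that atypical receptors use to internalise and recycle was called between the genotypes. Of 7 genes of arrestins and receptor kinases, all 7 were tested in each cell type and 0 called. Of 15 genes of endocytosis and recycling, 14 were tested in monocytes and 15 in SPMs and the lung, with 0 called. Over all genes, 1.27% were called in monocytes, 0.0462% in SPMs and 0.0% in the lung. At such shares lists of this size would seldom hold a called gene, so nothing is concluded about the machinery. Grk2, a kinase that marks active receptors for arrestin binding, stood at 182 and 151 CPM on average in WT and ACKR2-/- monocytes and at 266 and 295 CPM in the lung. Between WT cell types, Grk3, Grk5 and Grk2 were higher in the lung than in monocytes and Arrb2, Grk2, Grk3, Grk5 and Grk6 were higher in the lung than in SPMs, where Arrb1 was lower. From monocytes to SPMs Arrb1 was higher and Arrb2, Grk2 and Grk6 lower. Among the endocytosis genes, Cav1 of caveolae was higher in the lung by 10.99 against monocytes (SE 0.96) and 7.10 against SPMs (SE 0.78) on the log2 scale; it is also a gene of endothelium and alveolar epithelium, whose lists were high in the same libraries. Rab4a, Rab5a, Rab5c and Limk1 were higher and Rab4b lower in the lung than in monocytes. Dnm2, Pak1 and Rab5b were higher and Rab4b and Rab11a lower in the lung than in SPMs. Cav1, Rab4a, Rab5c and Rab11a were higher and Pak1 and Rab5b lower in SPMs than in monocytes. These differences with SPMs move with the scaling. With depth alone 2 of the 15 endocytosis genes were called higher and 9 lower from monocytes to SPMs, Rab5c turned to -0.38 (SE 0.25) there, and Arrb1 turned to 0.19 (SE 0.34) from SPMs to the lung. Without the 3 lung libraries the calls for Rab5a, Rab5c and Limk1 against monocytes and for Pak1 against SPMs were lost.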

How the data were processed

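Gene expression was measured by RNA-seq in 26 samples of 3 sorted cell types from WT and ACKR2-/- mice. Per the methods, RNA went through the SMARTer Ultra Low Input kit and was sequenced in paired ends at Novogene. The values the authors deposited are unnormalized counts for each gene, 1 table a cell type, with 54375 genes for monocytes, 54863 for SPMs and 57186 for the lung. The submitters' processing notes name HISAT2 2.0.5, featureCounts 1.5.0-p3, DESeq2 and mm10. The lung table has newer identifiers and ends in 5 summary lines, 56.3% of its counts, which were left out, so its counting may differ from that of the others. No source used here states the strandedness. Gene lengths were used as deposited for monocytes and SPMs, and applied to the lung.

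Testing of the deposited counts used edgeR 4.0.16 under R 4.3.3 (filterByExpr with a minimum count of 10 and total of 15, TMM, quasi-likelihood test, Benjamini-Hochberg adjustment over all genes tested), per cell type for genotype and in 1 fit of 6 groups for cell types. Calls required an adjusted p below 0.05 with a log2 fold change beyond 0.5 in either direction. The fits were tested on simulated data. The alternatives tried were RLE factors, DESeq2 1.42.0, tests on unfiltered genes, a filter at 1 CPM, a robust fit, the replicate number as a block, each sample left out and, added after seeing the data, 3 lung libraries left out together, DESeq2 on unfiltered genes and scaling by depth with no TMM factors. Mean CPM were compared by exact permutation with scipy 1.17.1, and correlations used 100000 permutations on log2 of CPM plus 0.5. No 2 replicates were as alike as counting noise alone would make them (chi-square over degrees of freedom at least 10.6). Same-numbered samples correlated above 0.1 in 2 of 4 monocyte, 0 of 4 SPM and 2 of 5 lung pairs, so numbers were not taken to pair samples.

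The 5 members and all gene lists were chosen with earlier results of these data known. The rule for names was the 5 members in every sample, list genes called in a comparison or else the 2 of highest level, the 3 genes closest to each member by correlation in the cell type where it is highest, and genes that overlap a member. Some markers of the sort gates and some list genes are not reported here.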

Additional observations from a re-analysis of the deposited data

Results flagged for a closer look

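Of 27 groups of 4 or 5 samples in which a member had any spread, 5 had a sample far from the rest by Dixon's ratio, of which chance gives about 1 group in 20, and groups with reads in a single sample reach it by their construction. Ccrl2 in WT SPM replicate 1 was the lowest of its group at 4.60 CPM (96 reads), with the next at 10.2 CPM. Ackr1 in WT SPM replicate 3, at 0.0880 CPM, rested on 1 read. Ackr2 in WT monocyte replicate 3, at 0.111 CPM, rested on 2 reads, Ackr3 in ACKR2-/- monocyte replicate 1, at 0.0538 CPM, on 1, and Ackr4 in WT SPM replicate 1, at 0.144 CPM, on 3. The other samples of these 4 groups had no reads of the gene.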

How the results depend on the processing

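Counts of genes called between the genotypes depended on the tool and on single libraries. In monocytes 168 genes became 494 with DESeq2, 346 with no filter and 540 with both, and 76 (without WT replicate 1) to 413 (without ACKR2-/- replicate 3) with 1 library left out. With no TMM factors the monocyte genotype comparison called 116 genes higher and 12 lower in place of 121 and 47, with the median of all genes at 0.12. In SPMs 6 became 33, 52 and 30, and 3 to 8 with 1 left out, and in the lung 0 became 15 with DESeq2, with or without the filter, and stayed at 0 to 0 with 1 left out. For the difference of the genotype effects, SPMs minus monocytes gave 45 genes, 130 with DESeq2, 86 without the 3 lung libraries and 29 to 58 with 1 left out. Lung minus monocytes gave 27, with 109 by DESeq2, 42 with no filter, 44 without the 3 libraries and 13 to 53 with 1 left out. Lung minus SPMs gave 7, with 22 by DESeq2, 3 with no TMM factors and 4 to 7 with 1 left out.

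Without TMM factors, the log2 fold change of Ccrl2 from WT monocytes to WT SPMs turned from a call at 0.89 to -0.345. Other signs turned for members with no call. The log2 fold change of Ackr3 between genotypes ran over -0.422 to 0.253 in SPMs, where it was 0.16 with no TMM factors, and over -0.126 to 0.551 in the lung, with 1 library left out, and was -0.07 in the lung without the 3 libraries; that of Ackr1 in the lung ran from -1.171 to 0.189. Ackr4 in SPMs minus monocytes was 0.047 with RLE factors, 0.071 with DESeq2 and -3.834 to 0.37 with 1 left out. As differences of mean CPM, ACKR2-/- minus WT, Ackr3 in SPMs was 0.207 without TMM factors and -0.601 to 0.259 with 1 left out, Ackr3 in the lung -1.64 without the 3 libraries and -1.69 to 7.79 with 1 left out, and Ackr1 in the lung -0.393 to 0.062.

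Exact tests lost their p under 0.05 but not their direction. Ccrl2 in monocytes was -3.72 CPM without TMM factors and -5.06 to -3.15 with 1 left out, and Ackr2 in SPMs -0.454 to -0.328, where 3 samples against 4 cannot reach a p below 0.0571. In the lung Ackr2 was -17.0 and Ccrl2 -173.0 without the 3 libraries, Ackr2 -14.6 to -9.05 and Ccrl2 -152.0 to -85.5 with 1 left out, and Ccrl2 -128.0 without TMM factors. The cause of the other changes was not tested.

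With the replicate number as a block, the log2 fold change of Ackr3 in SPMs was 0.24 in place of -0.03, and no other member changed its direction or side of the threshold. Depth limits Ackr1 and Ackr4 outside the lung, Ackr2 in monocytes and SPMs and Ackr3 in monocytes, all with 32 reads or fewer per library.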
